A study of Mus musculus with 6 samples.

Results

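The collagen gene family was taken as every protein-coding gene of GENCODE release M21 whose mouse symbol is Col, a number, a and a number, and whose identifier is in the deposited table. The definition was met by 41 of the 24906 genes listed there, and 3 more of the 44 annotated collagen genes (Col9a1, Col10a1 and Col19a1) were not analysed here. Of the 41, 30 reached a normalized count of 10 in at least 3 libraries and were tested, and 11 did not. The libraries were made from polyadenylated RNA of spleen cells from C57BL/6J mice aged 12 to 16 months, 1 library per sample. The D3TA group (n = 3) carried a CRISPR/Cas9-made change of cyclin D3 (gene Ccnd3) from threonine to alanine at residue 283 (T283A), in a line that was kept by heterozygous breeding. The WT group (n = 3) held wild-type mice of matching age. Per the series record, D3TA mice of this age have a severe myeloproliferative neoplasm, a disease in which the marrow and spleen overproduce myeloid blood cells. The comparison asks how collagen transcripts of the spleen cells of such mice differ from those of WT mice, and because these are bulk libraries, fewer cells of a type and less RNA per cell cannot be told apart.

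Collagens are matrix proteins built from chains with a glycine at every turn of a rope-like helix. Fibril-forming chains give tensile fibres, collagen IV chains give the meshwork of basement membranes, and the remaining classes decorate fibres, anchor membranes or span the cell surface. In spleen, reticular fibroblasts, the capsule and its trabeculae, smooth muscle and vessel walls are the usual sources, and scarring with collagen fibres (myelofibrosis) is a known complication of myeloproliferative neoplasms.

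Promoter windows from RefSeq on GRCm38.p6, running from 250 bases before to 50 after a start site, were matched for 32 of the 41 genes. The first pair below is shown because Col4a1 and Col4a2 lie head to head, with start sites 21 bases apart and windows that share 78 bases. Col5a1 is shown as the gene whose D3TA and WT values did not overlap, and Col1a2 as the most abundant member. Capitals mark CCAAT and GGGCGG on either strand, so that ATTGG and CCGCCC are capitalised as well. Each is written 5′ to 3′ on the strand of its gene. The Col4a1 window is chr8:11312777-11313076 on the minus strand, and the Col4a2 window is chr8:11312555-11312854 on the plus strand. The Col5a1 window is chr2:27886175-27886474 and the Col1a2 window is chr6:4505368-4505667, both on the plus strand.
Col4a1: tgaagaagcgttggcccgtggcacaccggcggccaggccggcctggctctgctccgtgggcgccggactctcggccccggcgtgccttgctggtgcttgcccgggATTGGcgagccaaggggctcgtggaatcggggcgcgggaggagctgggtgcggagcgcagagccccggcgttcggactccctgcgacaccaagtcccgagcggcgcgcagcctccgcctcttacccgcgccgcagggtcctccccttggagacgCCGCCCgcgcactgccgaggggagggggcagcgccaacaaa
Col4a2: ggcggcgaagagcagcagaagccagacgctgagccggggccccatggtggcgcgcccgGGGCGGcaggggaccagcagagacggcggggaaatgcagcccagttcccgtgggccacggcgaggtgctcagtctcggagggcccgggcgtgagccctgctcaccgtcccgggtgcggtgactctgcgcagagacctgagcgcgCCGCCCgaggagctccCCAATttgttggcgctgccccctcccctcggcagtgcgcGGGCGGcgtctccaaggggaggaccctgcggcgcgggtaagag
Col5a1: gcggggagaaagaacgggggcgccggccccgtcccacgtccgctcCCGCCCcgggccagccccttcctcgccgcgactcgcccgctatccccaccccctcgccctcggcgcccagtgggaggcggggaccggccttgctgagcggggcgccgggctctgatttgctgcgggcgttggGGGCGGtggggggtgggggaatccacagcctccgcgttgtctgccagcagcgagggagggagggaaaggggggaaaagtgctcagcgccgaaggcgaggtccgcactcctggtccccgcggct
Col1a2: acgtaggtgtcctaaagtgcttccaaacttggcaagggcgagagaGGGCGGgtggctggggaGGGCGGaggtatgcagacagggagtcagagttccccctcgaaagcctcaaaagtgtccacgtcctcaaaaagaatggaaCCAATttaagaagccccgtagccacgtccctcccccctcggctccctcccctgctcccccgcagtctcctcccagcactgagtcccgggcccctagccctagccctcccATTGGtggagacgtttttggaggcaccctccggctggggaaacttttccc
The Col4a1, Col4a2 and Col5a1 windows are 74%, 73.7% and 75% G or C, and the Col1a2 window 61%. Among 34 collagen windows, 23 (67.6%) held GGGCGG or its complement, against 35.7% of all 32851 windows. CCAAT or its complement was in 12 of the 34 (35.3%), against 37.4% of all windows. These matches describe letters in the windows and were not tested as binding sites.

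The libraries held 15545775 to 17482873 reads assigned to genes in D3TA and 14944622 to 19456838 in WT. Collagen genes took 0.0375% to 0.0875% of reads in D3TA and 0.0156% to 0.0618% in WT, with between 35 and 39 of the 41 genes detected in a library. Values are normalized counts, reads divided by a size factor per library, and are given in the order of replicates 1, 2 and 3 of each genotype. In these libraries 3 reads equal 2.59 to 3.36 of that unit. WT-2 had no read for 8449 of the listed genes, against 3193 to 5170 in the other libraries. A log2 difference subtracts the WT mean of log2(normalized count + 1) from the D3TA mean. It understates the change of low genes, and it comes with a standard error (SE) and a Benjamini-Hochberg adjusted p from limma over all 15564 genes tested. The knock-in is a substitution, so counts of Ccnd3 do not check the labels. The labels do not say how the cell suspensions were made or whether mice were littermates. Markers that define each candidate source of collagen were present in every library, with the exception of some markers of mesothelium, the lining of the capsule. The p-values below set the difference between D3TA and WT against the spread between libraries of the same genotype.

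No collagen gene differed between D3TA and WT at an adjusted p under 0.05. The limma test called 0 of the 30 collagen genes and 0 of all 15564 genes (0%). At an unadjusted p under 0.05 there was 1 collagen gene of 30 (3.33%), Col5a1, against 9.91% of all genes tested. For that same gene, 1 of 30, all 3 D3TA values lay above all 3 WT values, as they did for 8.18% of all genes. For 0 of 30 they lay below, as they did for 6.84% of all genes. Of the 30, 20 had a log2 difference above 0, or 66.7% against 54.5% of all genes, with a median of 0.27 against 0.06. Both summaries moved with single libraries. Without D3TA-3, 12 of the 30 lay above 0 with a median of -0.04, and without WT-3, 14 lay above 0 with a median of -0.16. Without WT-2, 25 lay above 0 with a median of 0.58, and without D3TA-1, 20 did so with a median of 0.44. Without both D3TA-3 and WT-3, which was tried after seeing the data, 6 lay above 0 with a median of -0.48, and 5 of the 9 genes whose difference exceeded its own SE changed sign. For 21 of the 30 genes the difference was smaller than its own SE, and the sign of each such difference is not read as a direction. The 9 with a larger one were Col5a1, Col1a1, Col7a1, Col4a1, Col11a2, Col6a3, Col3a1, Col4a2 and Col5a2. The edgeR quasi-likelihood test and limma-voom on recovered reads also called 0 collagen genes, and DESeq2 called 1, Col5a1, where it called 2.54% of the genes to which it gave an adjusted p.

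**Figure D1:**
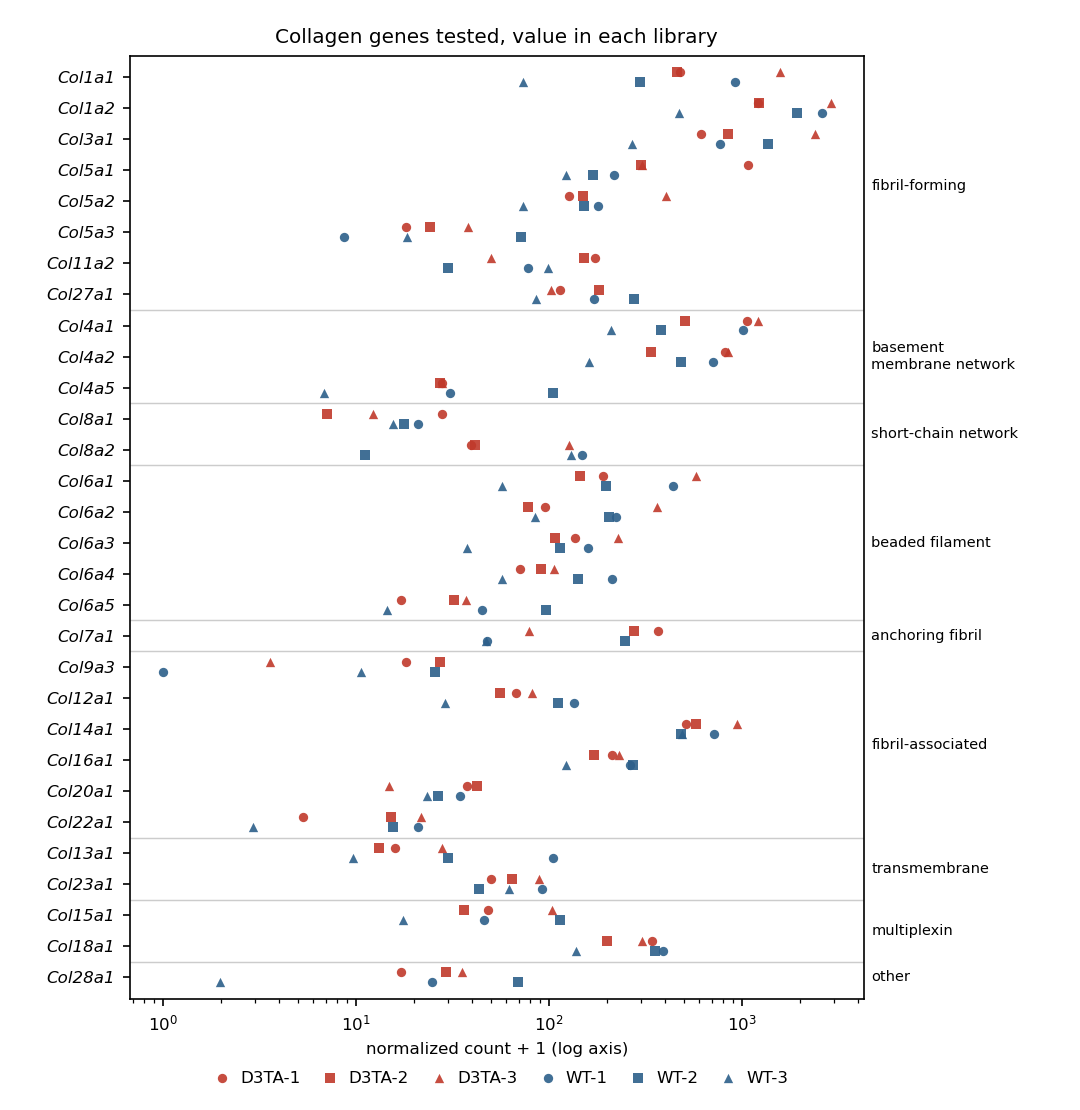
Normalized count plus 1 on a log axis for the 30 collagen genes tested, grouped by class, with 1 point per library (red for D3TA, blue for WT, and a marker shape per replicate number). The WT-3 triangle is the lowest point for 21 of the 30 genes, and the D3TA and WT points lie apart for Col5a1.

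Among the fibril-forming collagens, 8 of 11 were tested, 0 passed and 7 of the 8 lay above 0. Col5a1 encodes the alpha 1 chain of collagen V, which is buried in collagen I fibres and sets their diameter. Col5a1 (ENSMUSG00000026837, chromosome 2, 27886425 to 28039514, plus strand of GRCm38) stood at 1072, 299 and 301 in D3TA, against 216, 168 and 121 in WT. All 3 D3TA values lay above all 3 WT values, and D3TA-1 stood far above the others. For Col5a1 the log2 difference was 1.48 ± 0.51 (SE), a 2.79-fold difference, and limma gave an adjusted p of 0.391. It was 0.87 without D3TA-1 and 1.57 without both D3TA-3 and WT-3. The adjusted p was 0.304 in edgeR, 0.477 in limma-voom and 0.0431 in DESeq2. Genes annotated on the opposite strand and overlapping Col5a1 (Gm13372 and 2810430I11Rik) averaged 14.0 and 1.36 normalized counts, and the counting is not stated to use strand.

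Its partner chain differed in library order. Col5a2, the alpha 2 chain of collagen V, had 125, 149 and 405 in D3TA, against 179, 150 and 72.5 in WT. The groups overlapped, and D3TA-3, not D3TA-1, was highest. Its log2 difference of 0.65 ± 0.53 (SE) became -0.26 without both D3TA-3 and WT-3. The ratio of Col5a1 to Col5a2 counts was 8.56, 2.0 and 0.744 in D3TA and 1.21, 1.12 and 1.67 in WT. Col5a3, a chain of some collagen V molecules, had 17.1, 23.2 and 37.2 in D3TA, against 7.64, 70.5 and 17.4 in WT.

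Collagen I, the main fibre of capsule and trabeculae, has its chains encoded by Col1a1 and Col1a2, and collagen III, the reticular fibre, is encoded by Col3a1. Col1a2 (chromosome 6, 4504814 to 4541544) had 1206, 1230 and 2876 in D3TA, against 2609, 1933 and 468 in WT. Its groups overlapped over nearly their whole range, with a log2 difference of 0.28 ± 0.59 (SE) and a 95% confidence interval from -1.03 to 1.60. Col1a1 (chromosome 11, 94936224 to 94953042) had 478, 461 and 1578 in D3TA, against 916, 297 and 72.5 in WT. Its range over the 6 libraries was 21.5-fold on the value plus 1, from D3TA-3 at the top to WT-3 at the bottom. The log2 difference of Col1a1 was 1.37 ± 0.80 (SE), for an adjusted p of 0.619 in limma, and -0.15 without both D3TA-3 and WT-3. Col3a1 (chromosome 1, 45311538 to 45349706) had 613, 847 and 2397 in D3TA, against 769, 1365 and 270 in WT, and a log2 difference of 0.71 ± 0.62 (SE) that became -0.51 without that pair of libraries.

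The balance of the collagen I chains was examined along with that of other partner chains, in 6 ratios chosen after values had been seen. Col1a1 over Col1a2 was 0.396, 0.374 and 0.549 in D3TA and 0.351, 0.153 and 0.155 in WT. The lowest D3TA ratio, in D3TA-2, was just above the highest WT ratio, in WT-1. It was the 1 ratio of the 6 whose groups did not overlap, and it was not tested. The Col4a1 to Col4a2 ratio, for comparison, was 1.30, 1.5 and 1.43 in D3TA and 1.45, 0.784 and 1.30 in WT.

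Col11a2, a cartilage fibril chain, had 172, 150 and 49.3 in D3TA, against 76.4, 29.1 and 97.6 in WT. In that gene D3TA-1 and D3TA-2 were highest and D3TA-3 was not, the reverse of the collagen I and III genes. The log2 difference was 0.84 ± 0.63 (SE), and -0.0018 without both D3TA-1 and WT-2. Col27a1, a developmental fibril chain, had 112, 181 and 102 in D3TA, against 171, 273 and 85.0 in WT. Col2a1, the collagen of cartilage, had 3 reads over all 6 libraries, Col11a1 had 2 and Col24a1 had 5.

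Basement membrane collagen IV was carried by Col4a1 and Col4a2, whose chains form the ubiquitous collagen IV molecule. These genes neighbour each other head to head on chromosome 8, Col4a1 at 11198423 to 11312826 on the minus strand and Col4a2 at 11312805 to 11449287 on the plus strand, with the paired promoter windows printed above. Col4a1 had 1058, 506 and 1203 in D3TA, against 1015, 377 and 208 in WT. Col4a2 had 814, 336 and 843 in D3TA, against 702, 481 and 159 in WT. Both genes were highest in D3TA-3 and lowest in WT-3, and D3TA-2 lay below WT-1 in both. The log2 differences were 1.0 ± 0.55 (SE) for Col4a1 and 0.70 ± 0.55 (SE) for Col4a2, and limma gave adjusted p of 0.589 and 0.711. Without both D3TA-3 and WT-3 they were 0.24 and -0.15. Col4a5, a chain of kidney and smooth muscle basement membranes, had 26.8, 26.3 and 26.8 in D3TA, against 29.6, 104 and 5.80 in WT. The D3TA values of Col4a5 were almost equal, while the WT values spread on either side of them. Col4a3, Col4a4 and Col4a6, the chains of specialised membranes, were not tested, with 21, 41 and 18 reads in total.

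Collagen VI forms beaded filaments next to cells, and 5 of its 6 genes were tested. Col6a1 had 189, 143 and 574 in D3TA, against 438, 197 and 56.1 in WT. Col6a2 had 94.3, 76.8 and 360 in D3TA, against 222, 204 and 83.1 in WT, and Col6a3 had 135, 106 and 226 in D3TA, against 158, 113 and 36.7 in WT. D3TA-3 was highest for all 3 of these genes, and the D3TA and WT values overlapped in each. Their log2 differences were 0.55 ± 0.73, -0.17 ± 0.62 and 0.76 ± 0.58 (SE), and the last became -0.16 without both D3TA-3 and WT-3. Col6a4 and Col6a5, neighbouring genes, differed from them in library order. Col6a4 had 69.6, 89.9 and 105 in D3TA, against 211, 140 and 56.1 in WT, and Col6a5 had 16.1, 31.3 and 36.3 in D3TA, against 43.9, 95.1 and 13.5 in WT. Both were highest in a WT library. Col6a6, their neighbour, was not tested, with 50 reads in total.

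Col7a1, the anchoring fibril that ties epithelial basement membrane to the tissue below, had 364, 276 and 77.8 in D3TA, against 46.8, 245 and 46.4 in WT. The groups overlapped through WT-2, and D3TA-1 was highest. The log2 difference was 1.28 ± 0.74 (SE), and limma gave an adjusted p of 0.620. It was 2.07 without WT-2, 1.95 without D3TA-3 and 0.84 without D3TA-1.

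**Figure D2:**
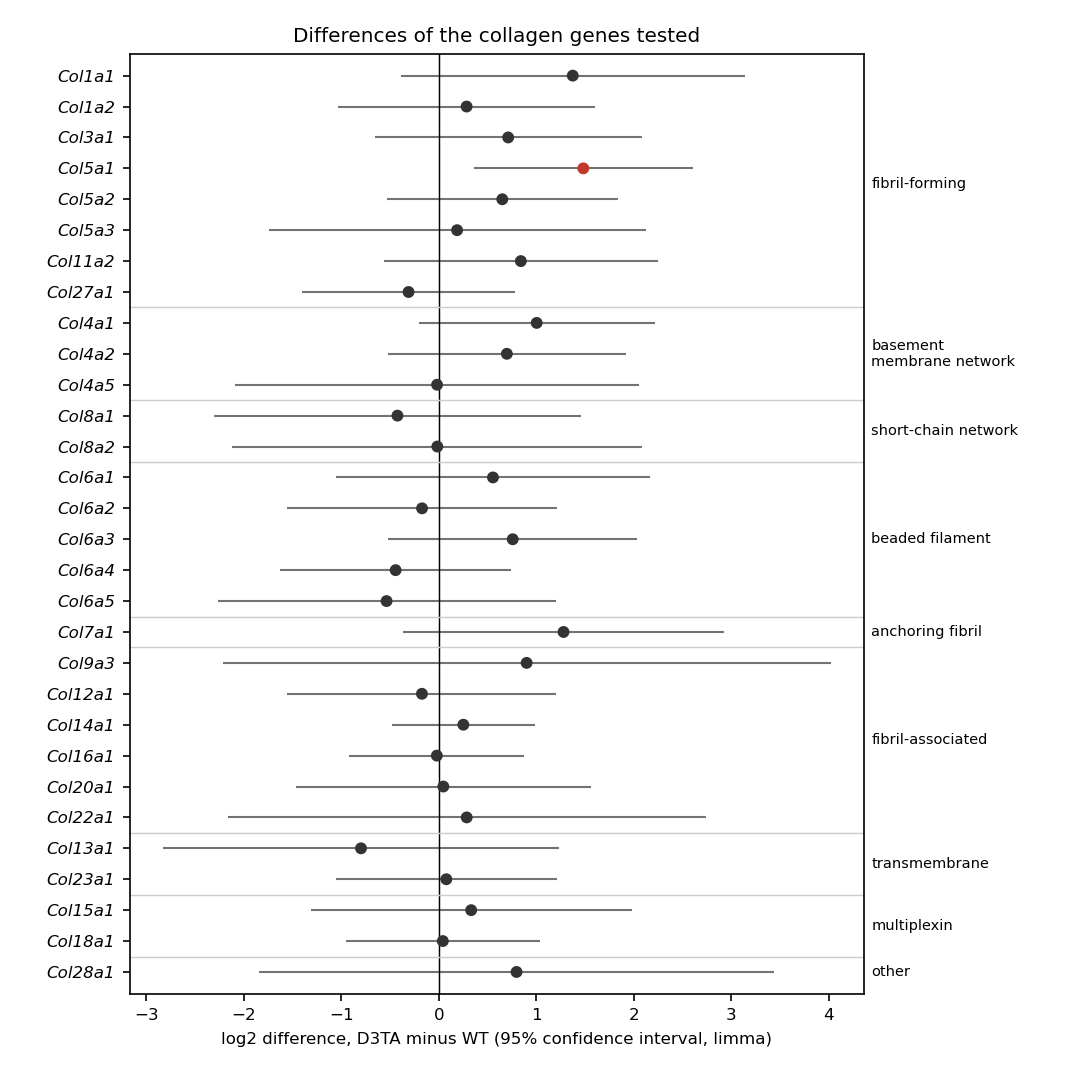
Log2 difference (D3TA minus WT) of the 30 collagen genes tested, with 95% confidence intervals from limma, grouped by class. Col5a1, in red, is the gene whose groups did not overlap, at 1.48, and the intervals of the other 29 genes include 0.

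Fibril-associated collagens sit on the surface of fibres and link them to other matrix. Col14a1, which binds collagen I fibres, made up 64.1% of the counts of this class and had the smallest range of any of the 30 genes, 1.96-fold. It had 514, 580 and 943 in D3TA, against 711, 481 and 487 in WT, with a log2 difference of 0.25 ± 0.33 (SE) and a 95% confidence interval from -0.48 to 0.99. WT-2 and WT-3 were its lowest libraries. Col16a1 had 210, 171 and 229 in D3TA, against 261, 270 and 122 in WT, and Col12a1 had 66.4, 54.5 and 80.4 in D3TA, against 134, 111 and 28.0 in WT. Col20a1 had 36.4, 41.4 and 13.8 in D3TA, against 33.4, 25.7 and 22.2 in WT. Col22a1 had 4.28, 14.1 and 20.7 in D3TA, against 20.1, 14.5 and 1.93 in WT. Col9a3 had 17.1, 26.3 and 2.59 in D3TA, against 0, 24.6 and 9.66 in WT. The D3TA and WT values of these 3 low genes overlapped, and Col9a3 had no read in WT-1, where 3 reads would be a normalized count of 2.87. Col9a2 was not tested, with 14 of its 19 reads in D3TA-2.

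Multiplexins are proteoglycan collagens of vessel and epithelial basement membranes. Col18a1, the precursor of endostatin, had 341, 198 and 303 in D3TA, against 390, 353 and 136 in WT. Its log2 difference was 0.04 ± 0.45 (SE), with an interval from -0.96 to 1.04. Slc19a1, a folate carrier annotated on the opposite strand and overlapping Col18a1, averaged 265 normalized counts, and without strand the reads of the pair cannot be told apart where they overlap. Col15a1 had 47.1, 35.4 and 103 in D3TA, against 44.9, 113 and 16.4 in WT.

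Transmembrane and short-chain network collagens were low, with class sums of 64.3 to 196 and 26.9 to 168 over the libraries. Col13a1, found at cell adhesions, had 15, 12.1 and 26.8 in D3TA, against 104, 29.1 and 8.70 in WT. Col23a1 had 49.3, 63.6 and 88.2 in D3TA, against 90.7, 42.5 and 60.9 in WT. Col8a2, a chain of the network under endothelium, had 38.6, 40.4 and 125 in D3TA, against 148, 10.1 and 129 in WT, and its partner Col8a1 had 26.8, 6.06 and 11.2 in D3TA, against 20.1, 16.8 and 14.5 in WT. Col28a1 had 16.1, 28.3 and 34.6 in D3TA, against 23.9, 68.3 and 0.966 in WT, where the WT-3 value is a single read. Col17a1, Col25a1 and Col26a1 were not tested, and all 10 reads of Col25a1 came from WT-2.

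Per kilobase of exon, the family was led by the chains of collagen I, III, IV and XIV. Over the 6 libraries Col1a2 averaged 138 normalized counts per kilobase, Col3a1 106, Col4a1 97.5, Col1a1 96.5, Col14a1 88.3 and Col4a2 84.0. Col6a1 came next at 60.8 and Col5a1 at 42.7. Col1a2 itself ran from 37.6 to 231 per kilobase over the libraries, so neighbours in that order overlapped. Those first 6 genes also held 66.2% of all collagen counts. Summed over the class, fibril-forming collagens had 3797, 3341 and 7748 in D3TA, against 4946, 4286 and 1203 in WT, of which Col1a2 gave 40.8%. The collagen IV class had 1908, 881 and 2095 in D3TA, against 1754, 964 and 398 in WT. The class sums overlapped between D3TA and WT for both.

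Collagen values spread widely between libraries of the same genotype. Over the 6 libraries a tested collagen gene ranged by a median of 6.07-fold on the value plus 1, against 2.78-fold for all genes tested. WT-3 held the lowest value of 21 of the 30 genes (70.0%), against 22.1% of all genes, and D3TA-3 held the highest value of 11 (36.7%), against 14.1%. The median log2 deviation of the 30 genes from their mean over the libraries was -0.10, -0.06 and 0.56 in D3TA, and 0.44, 0.39 and -1.18 in WT. WT-3 stood below the other 5 libraries, those of WT included.

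WT-3 was also low for long genes in general. Among protein-coding genes tested, the median deviation in WT-3 was 0.47 for those with up to 2000 bases of exon, -0.27 for 6000 to 9000, -0.42 for 9000 to 13000 and -0.66 above 13000. In the other 5 libraries these medians lay between -0.15 and 0.20. The collagen genes tested have 3853 to 15228 bases of exon, and the 7469 protein-coding genes in that range had a median of -0.21 in WT-3, which was their lowest library for 33.4%. With the length trend of each library removed, WT-3 was still the lowest for 17 of the 30 collagen genes, and the count above 0 became 17 with a median log2 difference of 0.09. Why transcripts differ by length in that library was not tested.

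**Figure D3:**
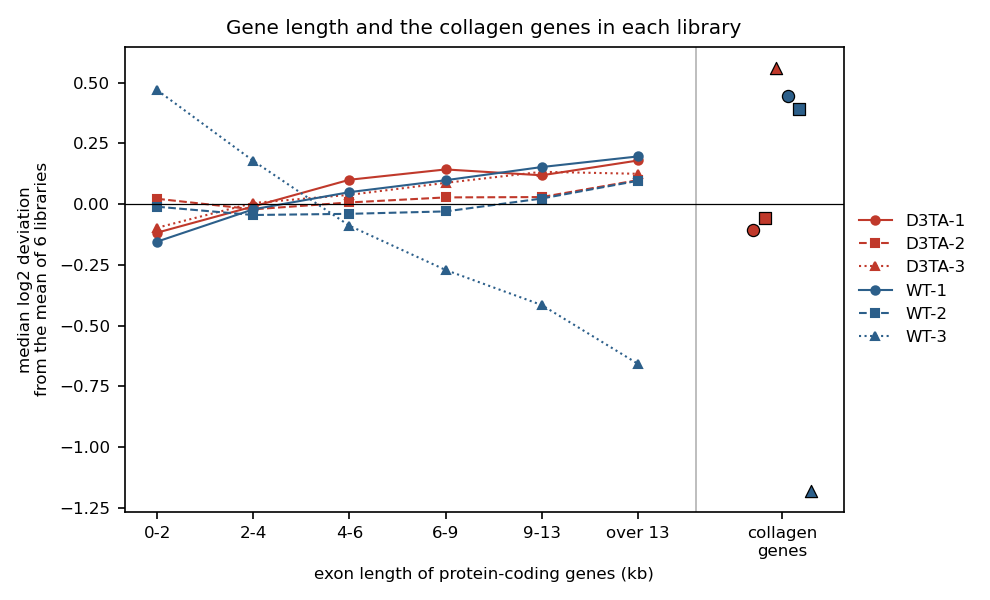
Median log2 deviation from the mean of the 6 libraries for protein-coding genes in 6 bins of exon length (lines, 1 per library) and for the 30 collagen genes (outlined points at the right). The WT-3 line falls from 0.47 to -0.66 as length grows, and its collagen point lies lower still, at -1.18.

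Markers of cells that make collagen varied between libraries as well. Fibroblast and reticular markers (all 12 detected in every library, led by Vcam1 and Cxcl12) summed to 10883, 15396 and 20038 in D3TA, against 22407, 32690 and 25706 in WT. That sum was carried by Vcam1, Cxcl12 and Cxcl13. Cxcl12 and Cxcl13 were the 2 of 11 tested markers that were lower in every D3TA library than in any WT library, as were 6.84% of all genes. The other 9 markers, split off after their values were seen, summed to 1433, 1869 and 3394 in D3TA and 3128, 2610 and 1496 in WT. Those sums overlapped between the groups and were highest in D3TA-3 and WT-1. Single genes weighed on them, with Dpt at 1712 of the 3394 in D3TA-3 and Ccl21a at 1073 of the 3128 in WT-1. Ccl21a had 314 in WT-2, and WT-1 lay above WT-2 in this sum through that gene. The summed collagen genes were also highest in D3TA-3 and WT-1, at 7972, 6246 and 13222 in D3TA and 9814, 7843 and 2942 in WT. The lowest libraries differed, D3TA-1 for the 9 markers and WT-3 for the collagen genes. Cxcl13, a follicular stroma chemokine singled out after its values were seen, had 695, 1882 and 2375 in D3TA, against 4582, 10250 and 2393 in WT. Its D3TA-3 value lay just below its WT-3 value. Smooth muscle and pericyte markers (10 of 10 detected in every library, led by Des and Acta2) summed to 2154 to 6110 in D3TA and 3410 to 6739 in WT. Endothelial markers (12 of 12, led by Plvap and Pecam1) summed to 7625 to 9142 in D3TA and 8002 to 10307 in WT. Of the fibroblast and reticular markers tested, 10 of 11 had a log2 difference below 0, with a median of -0.44. For smooth muscle and pericyte markers it was 9 of 10, with a median of -0.86, and for endothelial markers 7 of 12, with -0.09. The median of all genes tested was 0.06, and 0 markers of these lists passed limma's adjusted threshold.

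Mesothelial markers of the capsule differed by library, led by Gpm6a and Wt1. They summed to 88.9, 134 and 660 in D3TA, against 186, 776 and 617 in WT. Msln and Krt19 had no read in D3TA-1 or D3TA-2, and Upk3b had none in D3TA-2. Lrrn4 had none in D3TA-2, Krt19 none in WT-1, and Muc16 none in any WT library. Of the 7 mesothelial markers tested, 6 had a log2 difference below 0, with a median of -1.84 for the list, and 0 passed limma's adjusted threshold. Muc16 was the 1 marker above 0, with 12.9, 25.3 and 53.6 in D3TA. D3TA-3, the library with most collagen counts, was also the D3TA library with most mesothelial transcripts. Y-linked genes had 2800 reads in D3TA-3 and 2912 in WT-1, against 43 to 236 in the other 4 libraries, and D3TA-3 and WT-1 had the highest collagen sums. A term for Y-linked reads marks 1 library of each genotype, so it cannot change the log2 differences. With it, 20 of the 30 collagen genes lay above 0, with a median log2 difference of 0.27, as without it. Neutrophil markers, led by S100a9 and S100a8, summed to 80678 to 441235 in D3TA and 12155 to 27699 in WT, with Cebpe at 0 in WT-2. B cell markers, led by Cd79a and Cd79b, summed to 13414 to 41034 in D3TA and 67097 to 84293 in WT. T cell markers, led by Lck and Cd3d, summed to 4917 to 15936 in D3TA and 13913 to 20112 in WT. Megakaryocyte markers, led by Ppbp and Pf4 (9 of 10 in the table), summed to 5488 to 12799 in D3TA and 4139 to 5970 in WT, and Gp1bb was not analysed here. The sum of erythroid markers, led by Hba-a1 and Hbb-bs, was highest in D3TA-1, D3TA-2 and WT-3. In these, hemoglobin genes took 6.39%, 6.75% and 6.57% of reads. Single erythroid markers did not all follow that order, with Sptb at 408 in WT-3 and 1130 in WT-1. The part of these cell types in the collagen values was not tested.

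**Figure D4:**
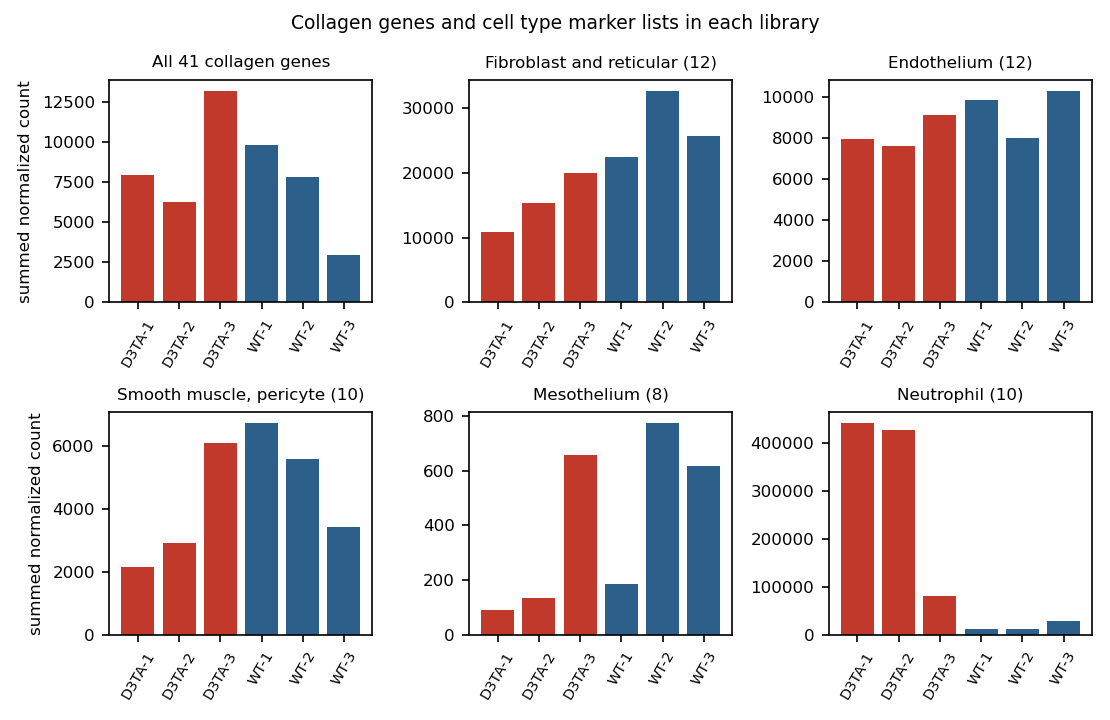
Summed normalized counts in each library (bars, red for D3TA and blue for WT) of the 41 collagen genes and of 5 marker lists, with the number of genes in each list in brackets; each panel has its own vertical axis from 0. The collagen sum is highest in D3TA-3 at 13222 and lowest in WT-3 at 2942, while the fibroblast and reticular sum, carried by Vcam1, Cxcl12 and Cxcl13, runs from 10883 to 20038 in D3TA and from 22407 to 32690 in WT.

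Collagen chains are hydroxylated, glycosylated and folded inside the cell before export, and 20 genes of these steps were examined. Of 19 tested, 0 passed limma's adjusted threshold and 0 had an unadjusted p under 0.05, with 7 above 0 and a median log2 difference of -0.15, where all genes had 0.06. Plod1, a lysyl hydroxylase, had 433, 405 and 611 in D3TA, against 367, 260 and 303 in WT, with a log2 difference of 0.63 ± 0.32 (SE) and an adjusted p of 0.555 in limma. P4hb, the protein disulfide isomerase subunit of prolyl hydroxylase, had 6627, 6440 and 8289 in D3TA, against 5401, 5401 and 5268 in WT. Colgalt2, a collagen galactosyltransferase, had 10.7, 9.09 and 7.78 in D3TA, against 17.2, 29.1 and 16.4 in WT. In all 3 genes the groups did not overlap, with Colgalt2 lower in D3TA. Over this and the 3 lists below, all D3TA values lay above all WT values for 7 of 51 genes (13.7%), against 8.18% of all genes, and below for 2 (3.92%), against 6.84%. Serpinh1, the collagen chaperone HSP47, was singled out after its values were seen, with 1116, 988 and 1989 in D3TA, against 1624, 1676 and 1206 in WT.

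Outside the cell, propeptides are trimmed and small proteoglycans settle on the fibre. Of 11 tested genes of these steps, 0 passed in limma, 0 had an unadjusted p under 0.05 and 6 lay above 0, with a median log2 difference of 0.18. Bmp1, the procollagen C-proteinase, had 456, 361 and 339 in D3TA, against 265, 196 and 258 in WT. All D3TA values were above all WT values, and the log2 difference was 0.68 ± 0.32 (SE), and limma gave an adjusted p of 0.517. Adamts2, a procollagen N-proteinase, had 165, 114 and 211 in D3TA, against 169, 69.4 and 43.5 in WT. Adamts3, a related N-proteinase, had 39.6, 10.1 and 15.6 in D3TA, against 3.82, 0 and 8.70 in WT, where WT-2 had no read. Decorin (Dcn), a proteoglycan of collagen I fibres and singled out after its values were seen, had 295, 834 and 2195 in D3TA, against 1170, 3805 and 887 in WT. Bgn (biglycan), the most abundant gene of this list and named after its values were seen, had 2536, 3025 and 7723 in D3TA, against 5731, 4160 and 1703 in WT. Bgn was highest in D3TA-3 and lowest in WT-3, as Col1a1 was, while Dcn was highest in WT-2.

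Among these lists, the largest differences were those of 2 collagen breakdown genes, Mmp8 and Mmp9. Of 11 tested genes, 0 passed in limma's adjusted test, 2 had an unadjusted p under 0.05 and 5 lay above 0, with a median log2 difference of -0.09. Of all genes tested, 9.91% had an unadjusted p under 0.05. Mmp9, a gelatinase stored in neutrophil granules, had 3038, 2624 and 833 in D3TA, against 363, 231 and 281 in WT. The log2 difference was 2.71 ± 0.46 (SE), and limma gave an adjusted p of 0.0945. Mmp8, the neutrophil collagenase, had 1617, 928 and 169 in D3TA, against 85.0, 0 and 76.4 in WT. Its log2 difference of 5.08 ± 1.55 (SE) includes the 0 in WT-2, and limma gave an adjusted p of 0.344. Mmp9 and Mmp8 were both higher in every D3TA library than in any WT library, with D3TA-1 highest and D3TA-3 lowest of the D3TA libraries. Of the 10 neutrophil markers, 10 were lowest in D3TA-3 among those libraries, 7 were highest in D3TA-1, and 3, among them S100a9 and S100a8, were highest in D3TA-2. Ctsk, the osteoclast cathepsin that degrades collagen, had 51.4, 66.7 and 51.0 in D3TA, against 83.1, 94.0 and 118 in WT.

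Receptors bind collagen on platelets, leukocytes and stroma, and 10 of 10 were tested. In limma 0 passed, 1 had an unadjusted p under 0.05, against 9.91% of all genes tested, and 8 lay above 0, with a median log2 difference of 0.36. Adgrg1, an adhesion receptor for collagen III, had 938, 310 and 354 in D3TA, against 291, 225 and 161 in WT. Its groups did not overlap, and D3TA-1 was highest as for Col5a1. The log2 difference of Adgrg1 was 1.09 ± 0.45 (SE), and limma gave an adjusted p of 0.459. Ddr1, a receptor tyrosine kinase for collagen, had 201, 271 and 460 in D3TA, against 699, 349 and 337 in WT. Itgb1, the shared beta chain of collagen-binding integrins, had 4512, 4939 and 6531 in D3TA, against 4926, 4005 and 3331 in WT.

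**Figure D5:**
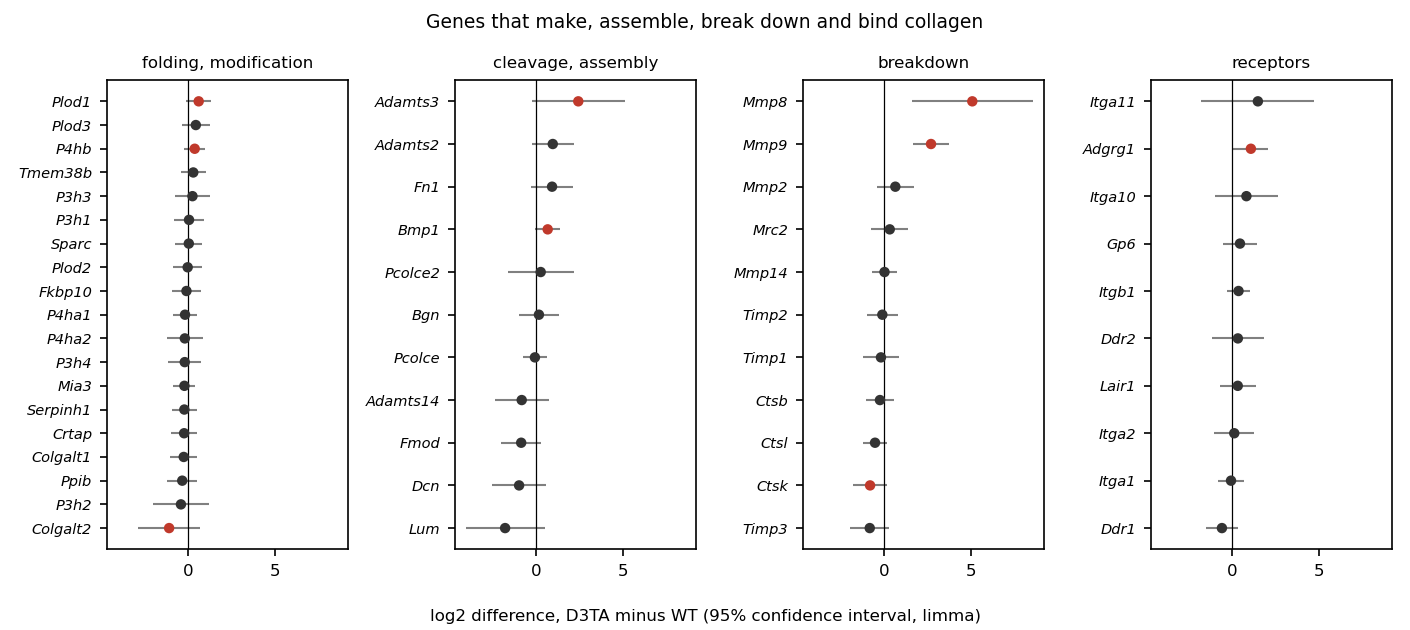
Log2 difference (D3TA minus WT) with 95% confidence intervals from limma for the tested genes that fold and modify, cleave and assemble, break down and bind collagen. Red points mark genes whose groups did not overlap, and Mmp8 (5.08, SE 1.55, with a 0 in WT-2) and Mmp9 (2.71) are the largest of them.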

How the data were processed

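RNA of spleen cells was sequenced in 6 libraries, 3 D3TA and 3 WT. Per the submitters' processing notes, CASAVA, FastQC, Trim Galore, HISAT2 and DESeq2 were used with genome build mm10. Neither the program that counted reads nor its annotation is given in the sources used here. The deposited values are a signal, read counts that the authors divided by a size factor per library. This was read from the values, since 100% of 149436 values were whole multiples of 1 step per library, within 0.001 reads. Limma, the test planned for values of this kind, was therefore used in place of the one planned for raw counts.

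Symbols, classes and exon lengths (union of exons) used GENCODE M21 on GRCm38, which held 24895 of 24906 identifiers. The 15564 genes that reached 10 in 3 or more libraries were fitted as log2(value + 1) with limma 3.58.1 (trend, robust), with genotype as the factor and a 2-sided adjusted p threshold of 0.05. Alternatives on recovered reads used edgeR 4.0.16, DESeq2 1.42.0 and limma-voom in R 4.3.3, beside other scalings, filters and pseudocounts, left-out libraries and added terms. Plots were drawn in matplotlib 3.10.9 (Python 3.11.15). Members, lists and tests were chosen with earlier results of these data known. Values in every library are given for the tested members, and of each pathway list for the 3 genes with the smallest p and those with non-overlapping groups. Nothing in the labels says that replicates share a litter or day. Intervals and the 3-read limit cover counting or replicate error only.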

Additional observations from a re-analysis of the deposited data

How the results depend on the processing

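The count of 0 collagen genes called was the same in all alternatives with the exception of DESeq2 on recovered reads, which called 1 (Col5a1). The limma count of 0 over all genes became 472 with DESeq2, 44 with no filter on low values, 11 with a hemoglobin term, 15 with a Y-linked term, and 628 without both D3TA-3 and WT-3, and it ranged from 0 to 306 when each library was left out in turn, with 306 without D3TA-3. The count of 20 collagen genes above 0 ranged from 12 to 25 with each library left out. It was 6 without both D3TA-3 and WT-3, where the median log2 difference was -0.48. With a hemoglobin term it was 23, and the median was 0.41. Leaving out that pair, and removing the length trend, were chosen after seeing the data. Of the 9 genes with a log2 difference beyond 1 SE, 6 took the other sign in at least 1 of 21 alternatives. Leaving out D3TA-3 and WT-3 together turned Col1a1 (-0.15), Col3a1 (-0.51), Col4a2 (-0.15), Col5a2 (-0.26) and Col6a3 (-0.16). Leaving out D3TA-1 and WT-2 together turned Col11a2 (-0.0018). Col5a1 (0.87 to 1.79), Col7a1 and Col4a1 kept their sign in all 21. With each library left out in turn, the 9 differences ranged from 0.43 to 2.25 for Col1a1, 0.07 to 1.24 for Col3a1, 0.48 to 1.62 for Col4a1, 0.08 to 1.14 for Col4a2, 0.13 to 0.97 for Col5a2, 0.15 to 1.18 for Col6a3, 0.84 to 2.07 for Col7a1 and 0.33 to 1.40 for Col11a2, beside that of Col5a1. Of the 21 genes within 1 SE, 20 took the other sign in at least 1 alternative. Labels share replicate numbers, but same-numbered libraries did not deviate together (correlations of -0.06, -0.005 and -0.13 across genes). A replicate block holds 1 library of each genotype per number, so it cannot change the log2 differences. With it the count of collagen genes called was 0, and 20 lay above 0 with a median of 0.27, as without it. The cause of the changes between alternatives was not tested.

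With 3 libraries a group and a median SE of 0.63 for the collagen genes (0.42 for all genes), most intervals reach more than 2-fold to either side of the estimate.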
